A study of Mus musculus with 2 samples.

Results

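Solitary CTCF sites are places bound by CTCF that have no other listed site close by on either side. They were chosen by position alone: peak bins of 25 bp were joined into sites across gaps of up to 200 bp, and a site was kept when its nearest other site, end to start, lay more than 100 kb away. On chromosomes 1 to 19 the rule found 1752 solitary sites among 46433 sites, or 3.77%. The remaining 44681 sites are called other sites below. Because distance chose the members, their isolation is a description, whereas their width and place on the chromosome were not part of the rule.

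CTCF is a zinc-finger protein that binds a long DNA motif in a fixed direction. At many of its sites it halts the cohesin complex, which extrudes chromatin into loops, and in that way it marks loop anchors, insulators and domain borders. In thymocytes CTCF is known for its part in folding the antigen receptor loci. Sites that stand far from any other are of interest because loop anchors and domain borders work in pairs or groups.

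The data came from CD4-CD8- double-negative (DN) thymocytes, the T cell precursors that carry neither coreceptor. The donors were C57BL/6 mice aged 4 to 8 weeks that lacked Rag1, the gene for a subunit of the recombinase that rearranges antigen receptor genes. Both labelled libraries share this genotype, and such a thymus holds no cells that passed the receptor checkpoint. The labels describe 2 libraries, 1 precipitated with an antibody against CTCF and 1 of input DNA, and 0 files of the input were in use here. How many animals were pooled is not given, there was no replicate, and binding positions alone cannot check the labelled cell type. The authors' track held 825544 bins, of which 806705 lay on chromosomes 1 to 19. It gave positions without any height, so read depth is unknown, width was the sole measure of a site's size, and a gap does not show that CTCF was absent. Intervals below are exact 95% intervals unless stated otherwise, and those of differences combine the exact bounds of both shares. They cover counting error only, neighbouring sites are not independent, and no p-value is given.

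The gaps beside solitary sites covered a wide range. The shorter gap had a median of 161 kb, with quartiles of 125 and 251 kb. The longer gap had a median of 334 kb, with quartiles of 216 and 596 kb. Among other sites the median distance to the nearest site was 7.53 kb. The rule fixes the direction of this contrast. In 103 solitary sites every known gap exceeded 500 kb, and in 9 both gaps exceeded 1 Mb. Together the solitary sites covered 0.553 Mb of the 20.6 Mb covered by all sites, which is 2.69% and less than their 3.77% share by number. In 11 cases the site was the first or last of its chromosome, so that its gap was known on 1 side only.

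The limit of 100 kb cut through a continuous range. The 5 members nearest to it lay 100050 to 100300 bp from their neighbours and measured 400, 625, 50, 350 and 225 bp. The 5 sites just short of it lay 99650 to 99875 bp away and measured 425, 200, 125, 300 and 1400 bp. Both sets mixed narrow with wide sites. Of the 96 members at 100 to 105 kb, 30 were 500 bp or wider, or 31.25% (22.2 to 41.5%). Of the 105 sites at 95 to 100 kb, 47 were, or 44.8% (35.0 to 54.8%). The share was thus lower just over the limit, with overlapping intervals, and over all sites it was 53.8%.

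Solitary sites were narrower than other sites. Their median width was 300 bp (quartiles 100 and 525 bp), against 525 bp (275 and 600 bp) for other sites. Of the solitary sites, 563 were 500 bp or wider, which is 32.1% (30.0 to 34.4%), against 54.6% (54.2 to 55.1%) of other sites. Over all sites of these chromosomes the share was 53.8%. The difference between solitary and other sites was -22.5 percentage points (-24.7 to -20.2). Sites of 500 bp or more are called wide below, and those under 500 bp narrow.

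Solitary sites held larger shares of the classes up to 300 bp and smaller shares of those from 500 bp upward. Sites of 100 bp or less made up 27.2% (25.2 to 29.4%) of solitary sites and 12.6% (12.3 to 12.9%) of other sites, with 13.2% over all sites. The smallest size possible, a single 25-bp bin, was found at 138 solitary sites, or 7.88%, against 3.73% of other sites. Widths of 125 to 300 bp made up 23.6% (21.6 to 25.6%) of solitary sites and 16.4% (16.1 to 16.8%) of other sites. At the upper end, sites over 700 bp made up 1.71% (30 sites; 1.16 to 2.44%) of solitary sites and 6.42% (6.19 to 6.65%) of other sites. Widths of 350 to 475 bp, in contrast, made up 10.8% (9.43 to 12.4%) of solitary sites and 10.4% (10.1 to 10.7%) of other sites, with overlapping intervals.

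A sharp maximum at 325 bp stood out in both sets. It held 109 solitary sites, against 56 at 300 bp and 41 at 350 bp, and these 109 made up 6.22% (5.14 to 7.46%) of solitary sites. Among other sites 2630, or 5.89% (5.67 to 6.11%), had this width. The class at 325 bp was 2.25 times the mean of its neighbours among solitary sites and 2.45 times among other sites. The broad class of 500 to 700 bp was thinner and also shifted to smaller widths in solitary sites. It held 533 solitary sites, or 30.4%, against 48.2% of other sites. Within it the most frequent width was 550 bp in solitary sites and 600 bp in other sites. The mean width within the class was 569 bp (normal 95% interval 565 to 573 bp) in solitary sites and 589 bp (588 to 589 bp) in other sites.

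**Figure D1:**
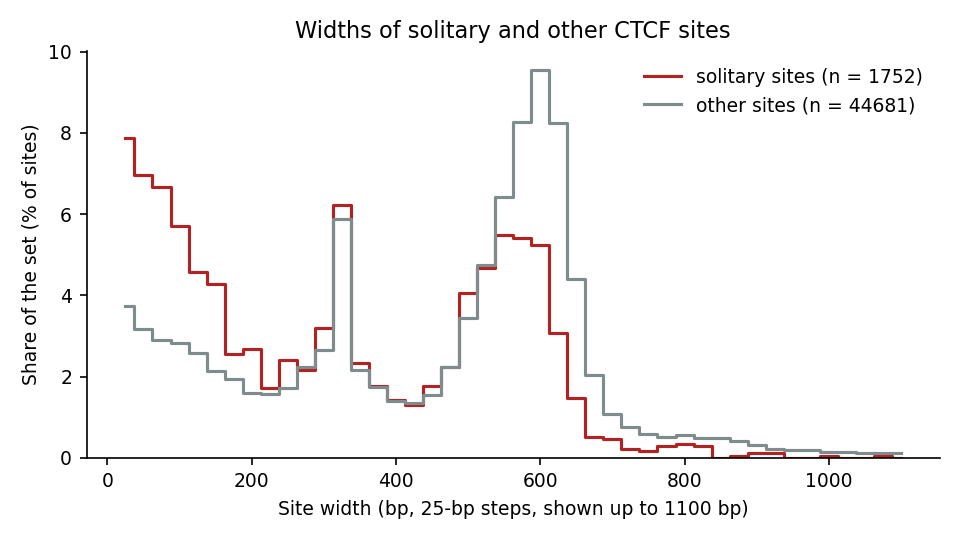
Share of sites (%, vertical) at each width in steps of 25 bp (horizontal), for the 1752 solitary sites and the 44681 other sites. Solitary sites stand higher at 100 bp or less and lower around 600 bp, and both curves share the maximum at 325 bp.

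The difference was as large among sites that needed no joining, but its size depended on how bins were joined. A single run of touching bins formed 91.7% of solitary sites and 89.0% of other sites. Among sites of a single run, 31.9% (29.6 to 34.2%) of solitary sites and 55.5% (55.0 to 55.9%) of other sites were wide. Pieces of a broken site that lay more than 200 bp apart counted as neighbours, so such a site could not be solitary. With joining across up to 1000 bp the number of solitary sites was 1788 and the difference in wide sites was -23.5 percentage points. With touching bins only joined, each piece of a broken site counts as a site of its own. The number was then 1606 and the difference was smaller, -15.4 percentage points (-17.7 to -13.0).

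Narrowing went on within the solitary sites as the distance grew. Of the 443 sites with the nearest neighbour at 100 to 125 kb, 39.5% (34.9 to 44.2%) were wide. The share was 34.7% (29.8 to 39.9%) at 150 to 200 kb, 27.9% (23.0 to 33.2%) at 200 to 300 kb and 22.9% (17.4 to 29.3%) at 300 to 500 kb. Beyond 500 kb it was 13.6% (7.63 to 21.8%), 14 of 103 sites. The first and the last of these intervals lay apart, and neighbouring ones overlapped. The median width was 375 bp at 100 to 125 kb and 125 bp beyond 500 kb. Sites of 100 bp or less took the opposite course, with 21.2% (17.5 to 25.3%) at 100 to 125 kb and 45.6% (35.8 to 55.7%) beyond 500 kb.

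The same course was already present on the near side of the limit. The wide share was 58.2% (57.4 to 59.1%) for sites with a neighbour at 1 to 5 kb, 50.3% (49.0 to 51.7%) at 25 to 50 kb, 44.7% (42.4 to 47.0%) at 50 to 75 kb and 41.8% (38.5 to 45.3%) at 75 to 100 kb. The interval at 75 to 100 kb overlapped that at 100 to 125 kb. Within the solitary sites, the wide share beyond 200 kb was lower than that at 100 to 200 kb on 18 of 19 chromosomes.

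**Figure D2:**
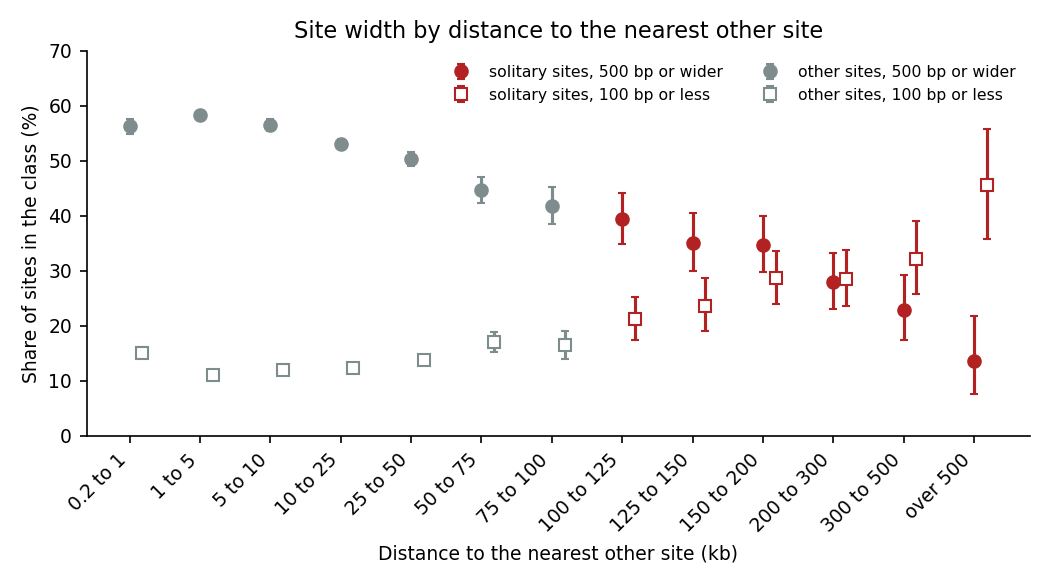
Share of sites (%, vertical) that were 500 bp or wider (filled circles) or 100 bp or less (open squares), by distance to the nearest other site in kb (horizontal, classes of unequal size), with exact 95% intervals. Beyond 100 kb, where sites are solitary, the wide share went on down to 13.6% and the narrowest class went on up to 45.6%.

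The wide share was lowest between gaps on both sides, and beside a gap on 1 side it was lower where the nearest neighbour was over 10 kb away. Among sites between 2 gaps of over 100 kb, 32.0% (29.8 to 34.2%) were wide. Sites that had such a gap on 1 side and a neighbour within 10 kb on the other were wide in 55.1% of 2019 cases (52.9 to 57.3%). Sites with a neighbour within 10 kb and no gap over 100 kb were wide in 57.5% of cases (56.9 to 58.1%). Sites with 1 gap over 100 kb and the other gap over 10 and up to 100 kb were wide in 47.0% of cases (45.6 to 48.4%). Sites with the nearest neighbour over 10 kb away and no gap over 100 kb were wide in 52.4% (51.5 to 53.2%). The last 2 intervals lay apart, whereas those of the 2 sets with a neighbour within 10 kb overlapped.

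Solitary sites also lay in sparse surroundings, yet the difference in width held among sites with like surroundings. Within 1 Mb of their centre on either side, solitary sites had a median of 18 further sites (quartiles 9 and 29), against 57 (38 and 84) for other sites. The rule favours such surroundings. With 10 to 19 further sites within 1 Mb, 32.6% (28.4 to 37.0%) of 478 solitary sites were wide, against 51.5% (49.3 to 53.7%) of 2053 other sites. With 20 to 39 the shares were 38.4% (34.5 to 42.3%) of solitary sites and 53.3% (52.3 to 54.3%) of other sites. Where at most 4 further sites were present, the shares were 21.0% (15.5 to 27.4%) of 195 solitary sites and 30.3% (21.0 to 41.0%) of 89 other sites, with overlapping intervals. Within solitary sites, wide ones had a median of 22 further sites within 1 Mb and narrow ones 17.

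Solitary sites were unevenly divided among the chromosomes. Chromosome 1 held the most, 141, and chromosome 19 the fewest, 33. As a share of a chromosome's own sites, chromosome 18 stood highest with 6.50% (5.24 to 7.95%; 88 of 1354 sites), followed by chromosome 14 with 5.51% (4.53 to 6.63%) and chromosome 13 with 5.33% (4.37 to 6.43%). The intervals of these 3 overlapped. The lowest shares were 1.84% (1.42 to 2.34%; 65 of 3529 sites) on chromosome 11, 2.32% (1.60 to 3.25%) on chromosome 19 and 2.41% (1.80 to 3.15%) on chromosome 17. The highest share was 3.53 times the lowest, and the intervals of these 2 chromosomes lay apart.

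Chromosomes with few sites per Mb had high solitary shares. Across the 19 chromosomes Spearman's rho between the solitary share and sites per Mb was -0.90, a description in which both measures hold the number of sites. Counted per length the chromosomes differed less: chromosome 18 had 100.3 solitary sites per 100 Mb of its span from first to last site and chromosome 11 had 54.7, a ratio of 1.83. Chromosome 18 held 5.02% of all solitary sites and 2.92% of all sites. Chromosome 11 held 3.71% of solitary sites and 7.60% of all sites.

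**Figure D3:**
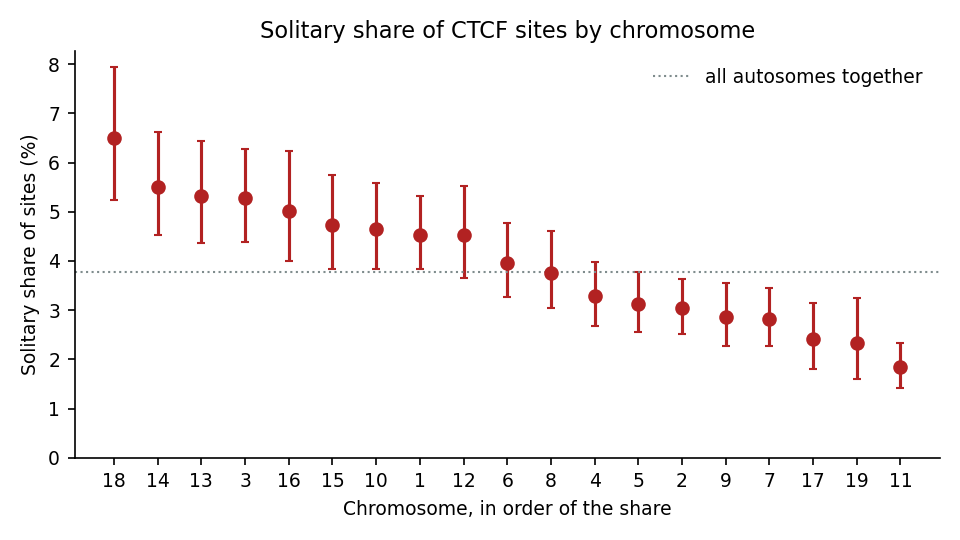
Solitary share of each chromosome's CTCF sites (%, vertical) with exact 95% intervals, for chromosomes 1 to 19 in order of the share (horizontal). The dotted line is the share over all of them, 3.77%, and the points run from 6.50% on chromosome 18 to 1.84% on chromosome 11.

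The lower share of wide sites among solitary sites was present on 19 of 19 chromosomes. On single chromosomes the wide share of solitary sites had a median of 32.1% and ran from 15.6% to 41.5%, whereas that of other sites had a median of 54.4% and ran from 51.9% to 58.8%. The 2 ranges did not overlap. Chromosome 8 had the lowest wide share, with 14 of 90 solitary sites (15.6%; 8.77 to 24.7%). Chromosome 11 had the highest, with 27 of 65 (41.5%; 29.4 to 54.4%).

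The 10 widest solitary sites measured 825 to 1075 bp, far below the 6300 bp of the widest site of the track. The first was on chromosome 7 from 81699730 to 81700804 (build mm9), a single run of 1075 bp with gaps of 122 kb and 148 kb. The second, of 1000 bp, was on chromosome 13 from 28036446 to 28037445, with gaps of 540 kb and 294 kb. Sites of 925 bp followed on chromosome 10 (64213003 to 64213927) and chromosome 14 (50681720 to 50682644). Sites of 900 bp were on chromosome 5 (86619721 to 86620620) and chromosome 16 (85807403 to 85808302). The others were on chromosome 7 (72095155 to 72096029, 875 bp; 98374880 to 98375704, 825 bp), chromosome 3 (14381369 to 14382193, 825 bp) and chromosome 8 (54954974 to 54955798, 825 bp). Solitary sites of 825 bp numbered 5, so the list of 10 leaves out some that tie with its last members. None of the 10 listed sites bordered a gap over 1 Mb, but just 7.64% of all wide solitary sites did, so this does not set them apart. The shorter gaps of the 10 ran from 116 to 294 kb.

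The most distant members were mostly narrow, as were most members. The site with the largest distance to its nearest neighbour, 1563 kb, was 1 bin of 25 bp on chromosome 8 from 100638199 to 100638223. It was followed by a site of 50 bp on chromosome 14 (108883520 to 108883569, 1356 kb) and a site of 325 bp on chromosome 2 (81904924 to 81905248, 1272 kb). On chromosome 4 a site of 150 bp (90747161 to 90747310, 1205 kb) and a site of 525 bp (68856511 to 68857035, 1064 kb) completed the first 5. Thus 4 of these 5 were under 500 bp. A site of a single bin rests on the smallest unit the track can hold, and without heights its strength is unknown.

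Wide solitary sites were not evenly spaced. The 544 distances between successive wide solitary sites of a chromosome averaged 4.10 ± 4.79 Mb (SD), so that the SD was 1.17 times the mean. Perfectly even spacing would give a value of 0. The distances ran from 0.102 to 36.0 Mb with a median of 2.29 Mb and quartiles of 0.922 and 5.67 Mb. Of them 84, or 15.4%, lay within 25% of the median on either side. Narrow solitary sites gave an SD of 1.29 times the mean over 1170 distances, and 16.7% of their distances lay that close to their median of 1.02 Mb. Over all 1752 solitary sites the value was 1.36. The rule, which favours sparse surroundings, also shapes these distances, and no random placement was set beside them.

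On single chromosomes the SD of the distances between wide solitary sites was 0.597 to 1.54 times the mean, and at or above the mean on 13 of 19. The lowest value belonged to chromosome 8, which had just 14 wide solitary sites. Its 13 distances still ran from 0.575 to 17.3 Mb. The next lowest values, 0.797 on chromosome 19 with 10 distances and 0.813 on chromosome 16 with 21, came from few distances too. The highest, 1.54 on chromosome 17, also came from few, 16, and included the longest distance of 36.0 Mb.

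Within the stretch between their own 2 neighbours, wide and narrow solitary sites lay at similar relative places. The shorter gap made up a median of 37.5% of both gaps together for wide sites and 36.0% for narrow sites, where 50% would be midway. The shorter gap was at least 40% of the total at 40.4% (36.3 to 44.6%) of 557 wide sites and at 37.8% (35.1 to 40.7%) of 1184 narrow sites. It was under 20% at 12.9% (10.3 to 16.0%) of wide sites and 12.6% (10.7 to 14.6%) of narrow sites. These intervals overlapped, but overlap leaves a difference possible. The rule also bounds this measure: with each gap over 100 kb, a value under 20% needs a total over 500 kb. The total had a median of 454 kb for wide and 567 kb for narrow sites, so the bound differed between the sets.

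**Figure D4:**
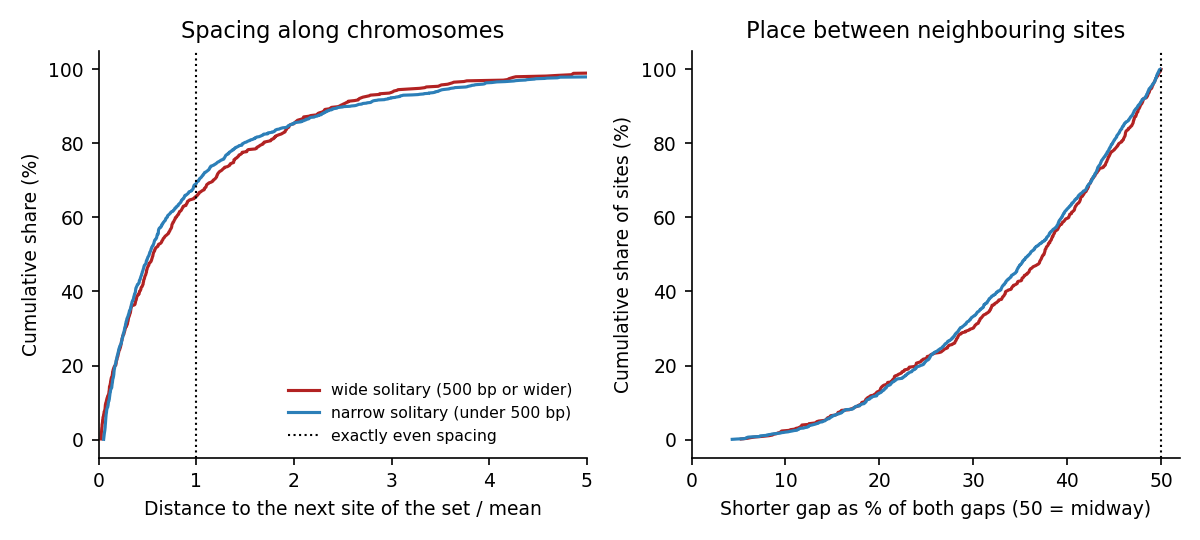
Left, cumulative share (%) of the distances from each wide or narrow solitary site to the next of its kind, divided by the mean distance, where the dotted line marks exactly even spacing. Right, cumulative share (%) of sites by the shorter gap as a percentage of both gaps. Neither curve of the left panel climbs steeply at the dotted line, and in the right panel wide and narrow sites run close together.

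Wide solitary sites were not gathered at the borders of empty stretches. A stretch was called empty when a gap between neighbouring sites exceeded 1 Mb, and either site ending it was a border site. Of the wide solitary sites, 43 were border sites, or 7.64% (5.58 to 10.2%), against 139 or 11.7% (9.92 to 13.7%) of the narrow ones. The difference was -4.05 percentage points (-6.90 to -0.978). With sites of 100 bp or less left out before distances were taken, it was -7.38 (-10.7 to -3.97). Over all sites the share at a border was 0.644%, and solitary sites exceed it by the rule, which asks for 2 long gaps. With stretches over 500 kb the shares were 25.6% (22.0 to 29.4%) for wide and 35.7% (33.0 to 38.5%) for narrow solitary sites. Over 2 Mb they were 1.60% (9 sites) and 1.77% (21 sites), and the interval of the difference, -1.43 to 1.40 percentage points, held 0. Among sites over 200 kb from the nearest, the interval of the difference at 1 Mb, -11.0 to 3.96, also held 0.

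**Figure D5:**
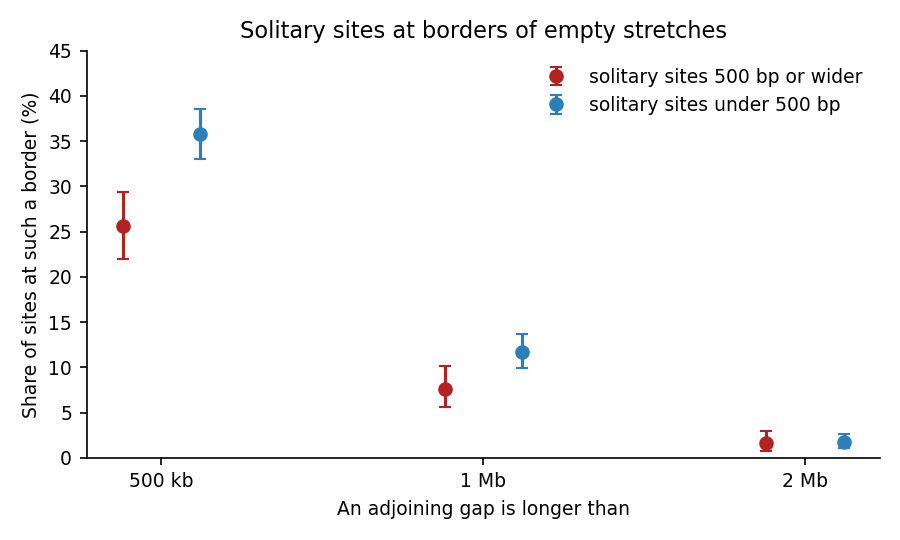
Share of wide and narrow solitary sites (%, vertical, exact 95% intervals) with an adjoining gap longer than 500 kb, 1 Mb or 2 Mb (horizontal). Wide sites lie below narrow ones at 500 kb (25.6% against 35.7%) and at 1 Mb (7.64% against 11.7%), and both are under 2% at 2 Mb.

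The 154 empty stretches had 299 different border sites, of which 182, or 60.9%, were solitary. Both ends were solitary at 59 stretches, 1 end at 73 and no end at 22. Of the solitary border sites 23.6% (17.7 to 30.5%) were wide, against 36.8% (28.0 to 46.2%) of the 117 border sites that had a neighbour within 100 kb. Both shares lay below the 53.8% over all sites. Wide sites stood at both ends of 13 stretches, and at 5 of these both ends were solitary. In 9 cases a single solitary site parted 2 empty stretches, and 2 of those sites were wide.

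Wide sites at borders were also counted among sites with a like shorter gap. With the shorter gap at 100 to 150 kb, 39.1% (34.8 to 43.5%) were wide where the longer gap was up to 300 kb, 34.6% (28.5 to 41.2%) at 300 kb to 1 Mb, and 33.3% (16.5 to 54.0%) beyond 1 Mb. At 150 to 250 kb the shares were 39.1% (32.8 to 45.6%), 27.0% (21.8 to 32.8%) and 35.9% (21.2 to 52.8%) in the same order. With the shorter gap over 250 kb, 6 of just 11 sites (54.5%; 23.4 to 83.3%) were wide where the longer gap was up to 300 kb, 21.6% (17.2 to 26.6%) were wide at 300 kb to 1 Mb and 17.2% (10.9 to 25.4%) beyond 1 Mb. The class beyond 1 Mb overlapped the class before it in each case, and it held 27, 39 and 116 sites.

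The 5 longest gaps of these chromosomes show how their ends can differ. The longest, 7.68 Mb on chromosome 7 from 39067430 to 46744229, ended in sites of 300 and 25 bp that both had neighbours within 30 kb, so neither was solitary. Each of the next 4 had 1 solitary end. These were 3.76 Mb on chromosome 7 (7252580 to 11014504; solitary end of 225 bp), 3.56 Mb on chromosome 12 (46706886 to 50271010; 200 bp), 3.56 Mb on chromosome 7 (20649705 to 24208254; 300 bp) and 3.55 Mb on chromosome 14 (93717070 to 97268544; 325 bp). All 4 solitary ends were narrow, as were most solitary sites at borders of empty stretches, of which 23.6% were wide. A wide site, of 625 and of 500 bp, ended the gaps on chromosome 7 at 7252580 and on chromosome 12, on the side that was not solitary.

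Solitary sites often followed one another. They fell into 959 runs, where a run holds successive sites of which every one is solitary. Of these, 549 held a single site, and the remaining 410 held 1203 sites, 68.7% of all solitary sites. Runs of 5 or more sites numbered 52. The rule favours runs, because a gap of over 100 kb beside a solitary site also belongs to its neighbour. Whether runs were more frequent than the rule alone would give was not tested. Sites standing alone between other sites were wide in 35.7% of cases (31.7 to 39.9%) and sites in runs of 5 or more in 29.0% (23.9 to 34.5%), with overlapping intervals. Sites in runs of 2 were wide in 37.4% (32.9 to 42.2%), in runs of 3 in 24.3% (19.5 to 29.7%) and in runs of 4 in 26.6% (20.4 to 33.5%). The interval for runs of 3 lay below that for sites standing alone, and the wide share showed no steady course with the length of the run.

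The longest run had 10 sites and lay on chromosome 18 from 16614532 to 20386031, a span of 3.77 Mb. In order of position its sites measured 50, 125, 525, 25, 25, 100, 75, 300, 725 and 100 bp. The run was thus made mostly of very narrow sites, with 2 wide ones set among them and none at its ends. The gaps inside it ran from 152 to 877 kb.

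The second run, of 9 sites, was on chromosome 15 from 13788905 to 17182554. Its sites measured 100, 75, 100, 325, 100, 275, 125, 550 and 275 bp, and a gap of 1568 kb followed its last site. Here the single wide site stood next to last. The third, 1 of 5 runs of 7 sites, was on chromosome 5 from 78338121 to 82775920. Its sites measured 525, 75, 25, 25, 125, 125 and 50 bp, with gaps of 363 to 1391 kb between them. In this run the wide site stood at the end with the lower coordinate, 101 kb from the nearest site outside the run.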

How the data were processed

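CTCF ChIP-seq of 1 library was used. Cells were fixed in 1% formaldehyde (10 minutes) and libraries had 15 PCR cycles, per the labels' protocols. Reads were handled with Bowtie and build mm9, per the submitters' processing notes. How peaks were called, at which threshold and against which control is not given in the sources used here. The deposited file lists positions of 25-bp bins (0 bins of another length) with no score. Other units were not present in the file.

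Bins were joined, distances were taken end to start, and positions are printed 1-based. Shares have exact Clopper-Pearson intervals. Intervals of differences combine these bounds. Code was tested on simulated sites, and 3 of 3 checks passed. Named sites are the 10 widest, the 5 most distant, 5 on each side of the limit, the 3 longest runs, the 5 longest gaps with their ends, and the chromosomes with the 3 highest and 3 lowest shares. Members, classes and tests were chosen with earlier results of these data known. No mm9 genome or annotation was used, so genes, promoters and the CTCF motif were not analysed here. Python 3.11.15, numpy 2.4.6, pandas 2.3.3, scipy 1.17.1 and matplotlib 3.10.9 were used.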

Additional observations from a re-analysis of the deposited data

How the results depend on the processing

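For 6 results 44 values were taken under other settings. Of these 27 stayed inside the counting interval of the reported value, within 1.5 times the reported count or, for spacing, within the range over leaving out each chromosome. The other 17 moved. A change of sign was possible just for the differences in wide sites and at borders, and 0 occurred. The distance limit set the number of solitary sites by construction: 1752 became 4400 at 50 kb and 627 at 200 kb, their median width became 350 and 225 bp, and the difference in wide sites became -16.1 and -30.3 percentage points. That difference became -15.4 with touching bins only joined, -17.8 with sites of 100 bp or less left out first and -19.2 with wide taken as 600 bp or more. Leaving out sites of 100 bp or less moved the median width to 450 bp, as fewer narrow sites remain. The SD over the mean of distances between wide solitary sites, 1.17, became 1.13 at 50 kb, 1.11 at 200 kb, 1.23 without sites of 100 bp or less and 1.04 with wide taken as 600 bp or more. The difference at borders, -4.05 percentage points, became -7.38 without sites of 100 bp or less, -10.2 for stretches over 500 kb and -0.17 for stretches over 2 Mb. Where no construction is named, the cause was not tested. Chromosome 18 had the highest solitary share under all of these settings, and chromosome 11 the lowest except without sites of 100 bp or less, where it was chromosome 19. Settings that keep sites of a single run, or leave out the first and last site of a chromosome, were chosen after seeing the data. Keeping sites of a single run gave the same median width and border difference as joining touching bins only. Those values are counted under both settings and are not separate checks. The motif was not searched, for want of an mm9 genome. No paired analysis was possible because just 1 library had a file. Depth is unknown, so sites under the authors' threshold cannot be seen, and any such site would change which sites are solitary.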

Other observations

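Solitary sites became rarer toward high coordinates of their chromosomes, where all sites together were more numerous. Each chromosome's span from first to last site was cut into 10 equal parts. The first part held 219 solitary sites, 6.43% of its sites (exact 95% interval 5.63 to 7.31%), and the last part held 123, 1.83% of its sites (1.52 to 2.18%). Per length the first part had 90.9 and the last 51.1 solitary sites per 100 Mb. In all, the first part held 3404 sites and the last 6721, and the rule favours parts with few sites. Whether the fall goes beyond this was not tested. It was not steady either, with a solitary share of 4.23% in the second part and 5.39% in the third. The share of solitary sites that was wide did not follow this fall, with 33.8% (27.6 to 40.5%) in the first part and 30.9% (22.9 to 39.9%) in the last.

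Wide solitary sites had wide solitary neighbours about as often as narrow ones did. Among 793 pairs of neighbouring solitary sites, 69 had 2 wide sites, 332 had 1 and 392 had none. Counted from wide sites 29.4% of solitary neighbours were wide, and counted from narrow sites 29.7% were. The gaps on the 2 sides of a site went together weakly. Spearman's rho between them was 0.09 over 557 wide sites and 0.25 over 1184 narrow sites, as a description in which neighbouring sites share a gap.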
